A study of Mus musculus with 2 samples.

Results

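*Retnlg*-high neutrophils of the mouse abdominal aorta were chosen by their own RNA counts in 2 single-cell libraries. A barcode was kept when it held at least 700 unique molecular identifiers (UMIs, counted RNA molecules) and 200 genes, with under 20% of UMIs on mitochondrial genes. It was called a neutrophil when it held at least 10 UMIs of *S100a8* and *S100a9* together, at least 1 of *Csf3r* or *Cxcr2*, at most 2 of the C1q genes, none of *Cd3e* or *Cd79a* and at most 3 of *Dcn*. It was called *Retnlg*-high when it also held at least 2 *Retnlg* UMIs, and *Retnlg*-zero when it held none. This gave 1673 *Retnlg*-high cells of 34889 barcodes that passed the quality terms and 36252 deposited, of which 1571 came from the AngII+HS library and 102 from the Control library. The levels of these genes are therefore a description of the choice and not a result.

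The study modelled abdominal aortic aneurysm in male C57BL/6J mice aged 5 months. In the AngII+HS group, angiotensin II (AngII) was infused at 1500 ng/kg/min for 28 days while the drinking water held 0.9% NaCl and 0.2% KCl, and the Control mice received saline. Each group gave 1 library of dissociated abdominal aorta. The design text names 5 pooled mice per library, whereas the extraction protocol speaks of 1 control mouse and 2 treated mice. With 1 library per condition no spread between animals could be measured, so values are given with exact 95% intervals that cover counting error only and no test was made. A difference between the libraries cannot be told apart from a difference between 2 preparations. The barcode list recorded with each library had as many entries as the other library's matrix had cells, with 24804 and 11448 barcodes, of which 67 occurred in both. The lists were not used, each matrix was taken as the library it was recorded under, and whether the matrices themselves were exchanged was not tested.

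Neutrophils leave the bone marrow with their granule proteins already made, and in blood they carry RNA for late granule and membrane proteins that falls as they age or enter inflamed tissue. In tissue they take up an inflammatory programme of chemokines, cytokines and survival genes driven by NF-kappaB. *Retnlg* encodes resistin-like gamma, a small secreted protein of the resistin family that in mice is made mainly by neutrophils and their precursors. *S100a8* and *S100a9* encode the subunits of calprotectin, the most abundant cytosolic protein of neutrophils. *Csf3r* encodes the receptor for granulocyte colony-stimulating factor, and *Cxcr2* a receptor for the chemokines that draw neutrophils out of the marrow and into tissue.

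The promoters of *Retnlg* and of 2 genes among those highest in *Retnlg*-high over *Retnlg*-zero neutrophils are shown because C/EBP factors and PU.1 are known regulators of granulocyte genes. Each is the stretch from 250 to 11 bases before the RefSeq start on the GRCm38.p6 build, plus strand, at chr16:48872358-48872597 for *Retnlg*, chr9:7558179-7558418 for *Mmp8* and chr16:36156561-36156800 for *Stfa2l1*. Capitals mark matches on either strand to TTGCNNAA, a C/EBP-like motif, or to GAGGAA, a PU.1-like motif.
Retnlg: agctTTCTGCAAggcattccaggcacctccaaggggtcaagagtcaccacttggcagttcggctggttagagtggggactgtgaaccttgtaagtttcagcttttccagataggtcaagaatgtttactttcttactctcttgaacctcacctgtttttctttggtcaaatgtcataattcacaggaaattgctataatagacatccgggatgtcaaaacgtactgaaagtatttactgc
Mmp8: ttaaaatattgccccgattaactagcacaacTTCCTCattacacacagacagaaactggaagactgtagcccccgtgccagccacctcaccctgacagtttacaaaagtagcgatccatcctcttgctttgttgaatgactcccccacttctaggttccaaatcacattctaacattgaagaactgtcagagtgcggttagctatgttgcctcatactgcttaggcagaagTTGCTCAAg
Stfa2l1: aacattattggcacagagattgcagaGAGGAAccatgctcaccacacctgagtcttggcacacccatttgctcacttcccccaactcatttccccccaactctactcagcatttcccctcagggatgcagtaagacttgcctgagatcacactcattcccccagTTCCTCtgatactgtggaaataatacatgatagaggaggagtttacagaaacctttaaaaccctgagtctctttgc
The C/EBP-like letters lay at -246 to -239 in *Retnlg* and at -19 to -12 in *Mmp8*. The PU.1-like letters lay at -219 to -214 in *Mmp8*, and at -224 to -219 and -86 to -81 in *Stfa2l1*. Of all 32851 RefSeq promoters of this length, 9.29% held the C/EBP-like letters and 22.3% the PU.1-like letters. Among the 12 genes highest in *Retnlg*-high neutrophils, 9 had a promoter entry, of which 3 held the C/EBP-like and 5 the PU.1-like letters. Among the 12 lowest, 9 had an entry, and 0 and 4 of them held these letters. A kappaB-like motif of 10 letters was held by 16.8% of all promoters and by 1 of 9 at each end. These matches describe letters and not binding.

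Markers that the choice had not used were those of neutrophils. All 10 neutrophil markers outside the rule were higher in *Retnlg*-high neutrophils of AngII+HS than in T cells of the same library, which served as a rough measure of free RNA. Besides the quality terms, T cells were chosen on *Cd3e* and *Cd79a* alone, without limits on the other genes of the rule. Doublets were not removed from them, so their values may hold RNA of mixed barcodes. The summed level of the 10 markers was 13677 CPM (counts scaled to 1e+06 UMIs of the class) against 726 CPM in T cells, and in Control it was 10253 CPM against 117 CPM. *Mxd1*, a transcriptional repressor of the mature neutrophil, stood at 3716 CPM in AngII+HS and 3071 CPM in Control. *Ly6g*, the surface antigen by which mouse neutrophils are usually sorted, was low at 35.6 CPM in AngII+HS and 250.3 CPM in Control, and had no UMI in T cells of either library. RNA of other cells was also present. T cells held more UMIs per cell, with medians of 3019 in AngII+HS and 5929 in Control, beside 1412 and 2864 in *Retnlg*-high cells. The CPM values of T cells were not matched for depth, so small gaps from them cannot separate free RNA from the neutrophils' own. The 3 smooth muscle markers summed to 1992 CPM in AngII+HS and 7083 CPM in Control, beside 993 and 6691 CPM in the T cells of each library. In AngII+HS the endothelial markers summed to 817 CPM and the erythroid markers to 1108 CPM, beside 940.4 and 765 CPM in T cells. The 3 platelet markers summed to 309 CPM in AngII+HS against 123 CPM in T cells, of which *Pf4* made 274 CPM and *Ppbp* 35.3 CPM, while *Gp9* had no UMI in these cells or in *Retnlg*-zero cells. The 4 eosinophil markers summed to 9.40 CPM against 1.25 CPM, with *Epx* at 0. The 8 macrophage markers, of which the rule capped the 3 C1q genes, summed to 1143 CPM in AngII+HS, most of it *Apoe* at 788 CPM, beside 1393 CPM in T cells, and *Mrc1* was at 12.4 CPM against 35.0 CPM in T cells. The 4 fibroblast markers, of which the rule capped *Dcn*, summed to 1194 CPM against 5032 CPM in T cells, and in Control to 555 CPM against 606 CPM. Of the 7 primary granule genes of promyelocytes, *Srgn*, which many blood cells express, alone passed the filter on low values, while *Mpo* and *Elane* were each at 0.672 CPM in AngII+HS and had no UMI in Control.

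*Retnlg*-high cells made up 92.7% of the 110 Control neutrophils (interval 86.2 to 96.8) and 44.3% of the 3550 AngII+HS neutrophils (42.6 to 45.9). Control neutrophils held more UMIs, with a median of 2864 UMIs per *Retnlg*-high cell against 1412 UMIs in AngII+HS. After every cell was thinned to 700 UMIs the shares were 82.7% (74.3 to 89.3) and 32.5% (31.0 to 34.1), so the order of the libraries was the same at equal depth. Of all barcodes that passed the quality terms, *Retnlg*-high neutrophils were 0.934% in Control and 6.55% in AngII+HS, beside 1.01% and 14.8% for all neutrophils. The smaller share among neutrophils and the larger share among all barcodes thus stood side by side in AngII+HS. The share of all barcodes also depends on how well each cell type survived dissociation, which was not tested.

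The number of *Retnlg* UMIs per cell also differed between the libraries. In Control the *Retnlg*-high cells held 2 to 199 *Retnlg* UMIs, with a median of 36, and in AngII+HS they held 2 to 142 with a median of 6. No gap in the counts lay at the limit of the rule in AngII+HS, where 12.9% of neutrophils held 1 *Retnlg* UMI, just outside the rule, and 7.35% held 2, just inside it. In Control the same shares were 2.73% and 0.909%. With every cell thinned to 700 UMIs they were 13.7% and 7.77% in AngII+HS and 7.27% and 4.55% in Control. The pooled level was 6075 CPM in *Retnlg*-high cells of AngII+HS and 10696 CPM in those of Control. T cells, which may include mixed barcodes, served as a rough measure of free RNA, whose part in the *Retnlg* counts was not tested. At least 2 *Retnlg* UMIs occurred in 2.19% of 365 T cells in AngII+HS, at a median depth of 3019 UMIs. In Control they occurred in 0 of 50 T cells, which allows up to 7.11%. In AngII+HS macrophages, identified by their C1q UMIs, the share was 0.250% of 2398.

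**Figure D1:**
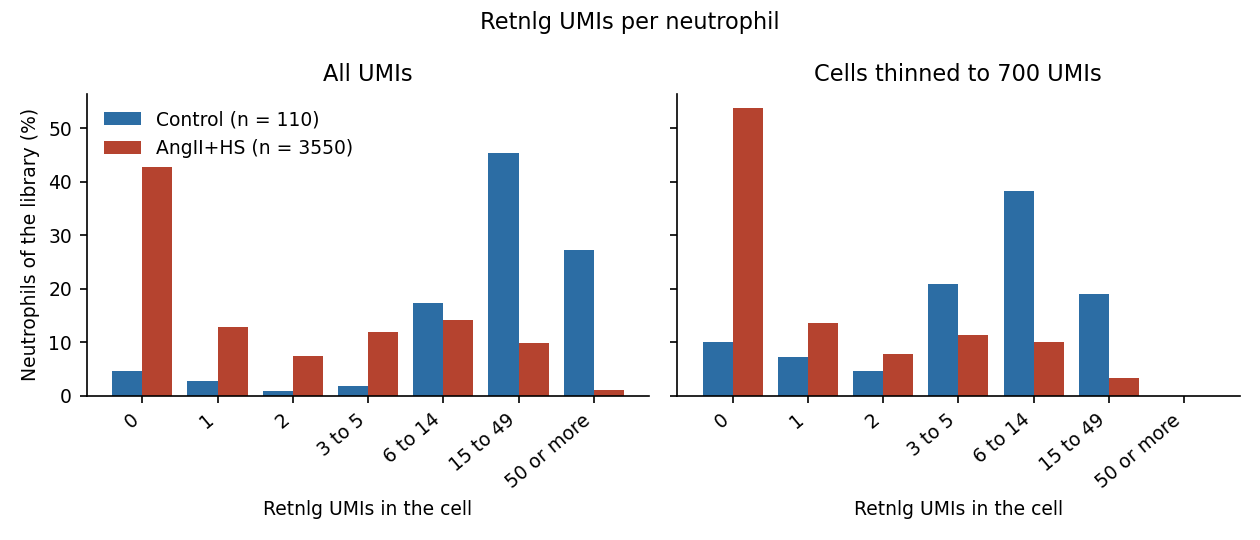
Share of neutrophils (%, vertical axis) by the number of *Retnlg* UMIs in the cell (horizontal axis) for the 110 Control and 3550 AngII+HS neutrophils, as counted and after thinning to 700 UMIs per cell. The largest class in AngII+HS is cells with none, at 42.8% as counted, and in Control it is cells with 15 to 49, at 45.5%.

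The other members of the resistin family were scarce in these cells. *Retn*, which encodes resistin, was at 35.9 CPM in *Retnlg*-high and 23.0 CPM in *Retnlg*-zero neutrophils of AngII+HS, and at 20.9 CPM in *Retnlg*-high neutrophils of Control. *Retnla*, a gene of alternatively activated macrophages, was between 4.18 and 5.37 CPM in these 3 classes. *Retnlb*, mainly an intestinal gene, was at 2.69 CPM in *Retnlg*-high cells of AngII+HS and had no UMI in *Retnlg*-zero cells.

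Within AngII+HS, the 1571 *Retnlg*-high cells carried more late granule and blood neutrophil RNA than the 1520 *Retnlg*-zero cells, while most activation genes lay near the median of all genes. The classes were close in depth, with medians of 1412 and 1306.5 UMIs and of 713 and 697 genes per cell. Among 5359 genes with a mean of at least 20 CPM, 19 were at least 2-fold higher in *Retnlg*-high cells, which is 0.355% and includes *Retnlg* itself, and 50 were at least 2-fold lower, which is 0.933%. The median log2 ratio of all 5359 genes was -0.14. Because *Retnlg* chose the classes, all values of this comparison are descriptions. Scaling by trimmed means (TMM) moved the median to 0.06 and the counts to 33 higher and 22 lower, so that small ratios are best read against the median of all genes.

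*Mmp8*, which encodes neutrophil collagenase of the specific granules, stood highest of the genes with a UMI in at least 10% of cells, at 276 CPM in *Retnlg*-high, 88.5 CPM in *Retnlg*-zero and 1225 CPM in Control *Retnlg*-high cells. Its log2 ratio of *Retnlg*-high to *Retnlg*-zero was 1.64 (1.44 to 1.85). At 700 UMIs per cell, 16.6% of *Retnlg*-high and 5.33% of *Retnlg*-zero neutrophils held an *Mmp8* UMI, beside 0.274% of T cells. *Wfdc21*, a gene of the whey acidic protein family, was at 707, 254 and 2239 CPM in the same 3 classes, a log2 ratio of 1.47 (1.35 to 1.60). *Lcn2*, which encodes the siderophore-binding lipocalin of specific granules, was at 1470, 731 and 2586 CPM, a log2 ratio of 1.01 (0.93 to 1.08). In all 3 genes the *Retnlg*-high cells of AngII+HS lay between the *Retnlg*-zero cells and the Control cells. These 3 classes also differed in *Retnlg* itself, on which the libraries were not matched.

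Other genes of the 12 highest were of several kinds. *Msra*, a methionine sulfoxide reductase that repairs oxidised proteins, had a log2 ratio of 1.26 with 190 against 79.1 CPM. The cystatin-type protease inhibitors *Cstdc4* and *Stfa2l1* followed at 1.02 and 1.01, and their reads may be split between near-identical copies, so each is uncertain. *Fpr1*, the receptor for bacterial formyl peptides, was at 440 against 220 CPM, a 2-fold difference. *Mgst1*, *Rnf144a*, the chemokine *Ccl6* and *Wfdc17* were also among the 12, with log2 ratios from 0.85 to 0.76. All 12 were higher in *Retnlg*-high cells in each of the 12 alternative analyses, but with every cell thinned to 700 UMIs only 4 of them were past 2-fold. *Lcn2* was then at 0.83, *Fpr1* at 0.83, *Stfa2l1* at 0.88 and *Cstdc4* at 0.85, so none of these 4 kept its 2-fold call at that depth.

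The 50 genes at least 2-fold lower in *Retnlg*-high cells were all sparse, with a UMI in fewer than 10% of the cells of either class at 700 UMIs, and the genes above that limit differed less. *Bcl2a1b*, a pro-survival member of the BCL2 family, was at 849 CPM against 1336 CPM in *Retnlg*-zero cells, a log2 ratio of -0.65. *Bcl2a1a* and *Bcl2a1d* had log2 ratios of -0.68 and -0.76, and the 3 genes are near-identical copies between which reads may be split. *Il23a*, a subunit of interleukin 23, was at 146 against 234 CPM, a log2 ratio of -0.68. The others of the 12 lowest were *AA467197*, *Rpsa*, *Ppia*, *Rpl12*, *Fabp4*, *Clic4*, *Clec4n* and *B4galt1*, from -0.69 to -0.57. *Fabp4* is a gene of fat and capillary endothelium, and 71.5% of its UMIs in *Retnlg*-high cells came from 10 cells. Its log2 ratio of -0.58 became -0.06 when every cell was thinned to 700 UMIs and 0.61 in cells of 1500 to 3000 UMIs. *Icam1*, an adhesion molecule that activated neutrophils make, was at 687 against 998 CPM (-0.54), and *Tnf* at 1586 against 2090 CPM (-0.40).

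**Figure D2:**
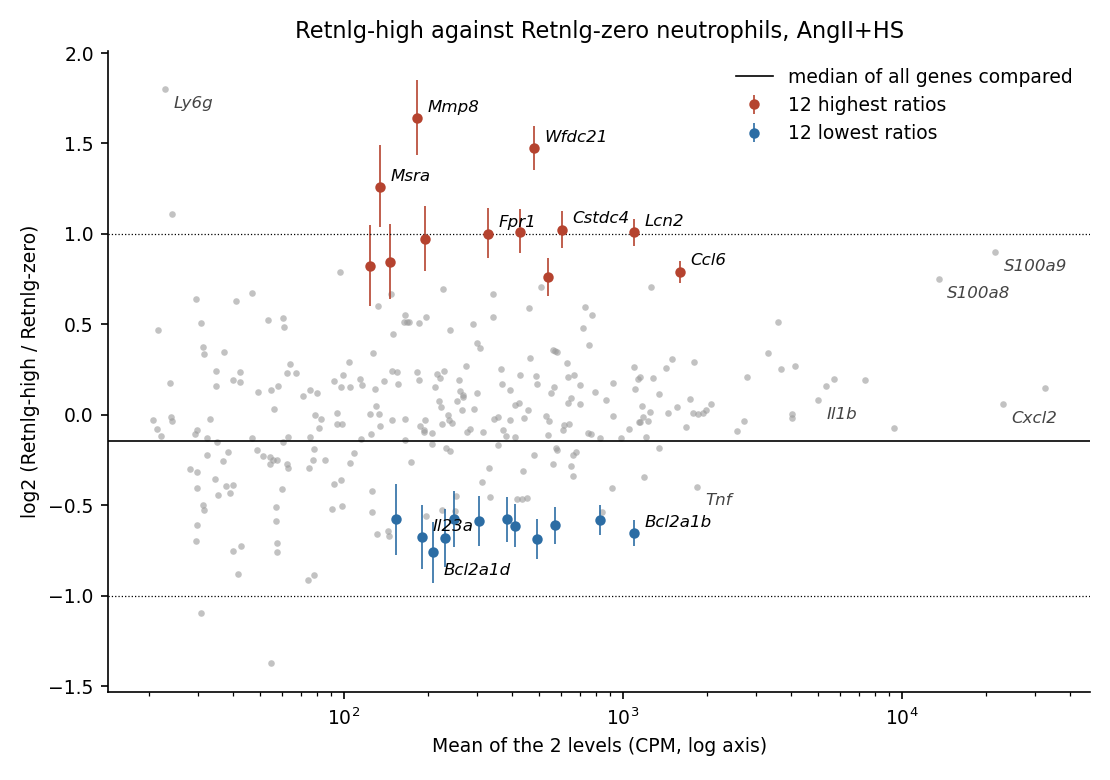
Log2 ratio of CPM in *Retnlg*-high to *Retnlg*-zero neutrophils of AngII+HS (vertical axis) against mean CPM (horizontal axis, log scale), with 1 point per named gene or list member, 95% counting intervals on the 12 highest and 12 lowest, a solid line at the median of all 5359 genes and dotted lines at 2-fold. *Mmp8* lies at 1.64 and *Wfdc21* at 1.47, while *Bcl2a1d* lies at -0.76 and *Cxcl2* at 0.06.

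The same genes were followed along the number of *Retnlg* UMIs, in cells with 0, 1, 2, 3 to 5, 6 to 14 and at least 15. *Mmp8* was at 88.5, 111, 155, 183, 246 and 483 CPM in these 6 classes, higher at each step. *Wfdc21* was at 254 CPM with no *Retnlg* UMI, 490.3 CPM with 1 and 1014 CPM with at least 15. *Lcn2* went from 731 CPM to 1891 CPM, with 1172 CPM at 2 UMIs and 1093 CPM at 3 to 5. *Icam1* was lower at each step, from 998 to 604 CPM. *Cxcl2*, a chemokine that attracts neutrophils, stayed between 19696 and 24374 CPM. Median depth was 1306.5 UMIs in the lowest class and 1518 UMIs in the highest, and its part in these orders was not tested.

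**Figure D3:**
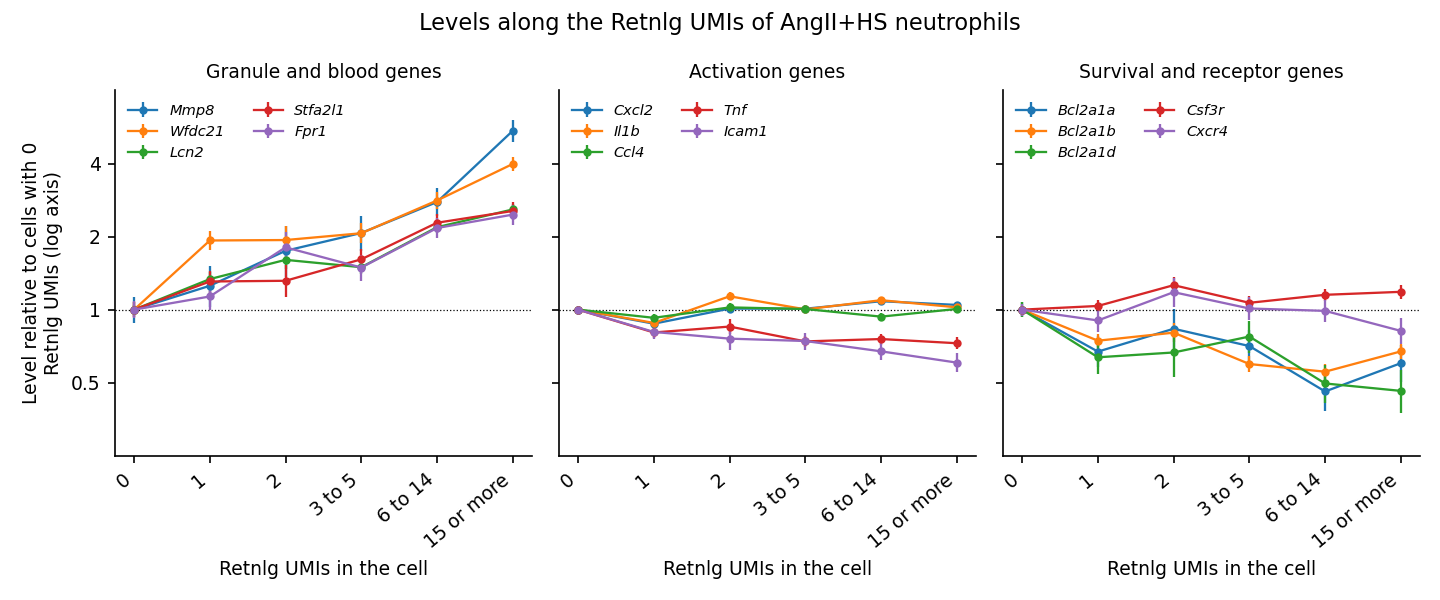
Level of each gene relative to AngII+HS neutrophils with no *Retnlg* UMI (vertical axis, log scale) in 6 classes of *Retnlg* UMIs per cell (horizontal axis), with bars for 95% counting intervals. *Mmp8* and *Wfdc21* are highest in the class with at least 15 *Retnlg* UMIs, whereas *Cxcl2*, *Il1b* and *Ccl4* stay near 1 and *Icam1* is lowest there.

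Over the 3550 neutrophils of AngII+HS thinned to 700 UMIs, the genes whose level was most like that of *Retnlg* were *S100a9* (Pearson's r = 0.33) and *S100a8* (0.29), both of which the rule used. *Wfdc21* (0.24), *Ccl6* (0.21), *Mmp8* (0.20), *Lcn2* (0.20) and *S100a11* (0.19) came next of 1060 genes compared, followed by *Thbs1*, *Slpi* and *Prdx5* with r from 0.16 to 0.13. The most unlike were *Bcl2a1b* (-0.15), *Malat1* (-0.13) and *Icam1* (-0.11). These cells share 1 library and its free RNA, the values are sparse, and the correlations are weak.

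Secondary granule and blood neutrophil genes had medians above that of all genes in *Retnlg*-high cells of AngII+HS. Of 13 secondary granule genes, 9 passed the filter, 2 of them (*Mmp8* and *Lcn2*) at least 2-fold higher and none lower, with a median log2 ratio of 0.55 against -0.14 for all genes. Over all genes the shares past 2-fold were 0.355% higher and 0.933% lower, from which nothing is read here because *Retnlg* chose the classes. *Pglyrp1*, a bactericidal granule protein, was at 180.3 against 114 CPM, and *Lyz2*, which encodes lysozyme, at 924 against 630.0 CPM. *Ngp*, a granule protein gene of marrow neutrophils, was under the filter with 54 UMIs in *Retnlg*-high and 4 UMIs in *Retnlg*-zero cells, and 83.3% of the 54 UMIs lay in 10 cells. *Ltf*, which encodes lactoferrin, was at 26.5 against 33.1 CPM, so the granule list did not share one direction. Of 24 genes of mature blood neutrophils, 23 passed, 4 at least 2-fold higher and none lower, with a median of 0.47. Besides *Ly6g*, at 35.6 against 10.1 CPM, which passed the filter only through the *Retnlg*-high class, these were *Mmp8*, *Wfdc21* and *Stfa2l1*. *Slpi*, an inhibitor of neutrophil elastase, was at 1569 against 962 CPM.

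Genes of gelatinase granules and secretory vesicles had a median of 0.21, and 11 of 12 passed the filter with 1 (*Fpr1*) at least 2-fold higher, a call it lost on thinning. *Mmp9*, which encodes the gelatinase of these granules, was at 1191 against 1153 CPM, in contrast to *Mmp8*. Of 26 genes of glycolysis and hypoxia, 25 passed, none past 2-fold and 23 above the median of all genes, with a list median of 0.20. In this list and the one before, counts past 2-fold are not read, beside 0.355% of all genes higher and 0.933% lower. *Slc2a3*, a neutrophil glucose transporter, was at 123 against 71.1 CPM, and *Gapdh* at 653 against 513 CPM. All 7 NADPH oxidase genes that passed, of 8, were above the median of all genes, the list median being 0.12.

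Activation genes lay close to the median of all genes. Of 32 genes of tissue activation, 31 passed, with a median of -0.03. None was past 2-fold, beside 0.355% of all genes higher and 0.933% lower, so nothing is read from the absence of calls. *Ccl3* and *Ccl4*, chemokines for monocytes and lymphocytes, were at 2475 against 2637 CPM and 3999 against 4053 CPM. *Cxcl3* was at 1979 against 1613 CPM. The interleukin 1 and inflammasome genes had a median of 0.06 over 11 of 15, with *Il1b* at 5130 against 4856 CPM and *Il1a* at 380 against 523 CPM. Interferon-stimulated genes had a median of -0.09 over 24 of 32, of which none was past 2-fold, beside the same low shares of all genes. *Isg15*, a ubiquitin-like modifier that interferon induces, was at 214 against 292 CPM. A minority of cells held much of this RNA, since at 700 UMIs per cell the 157 *Retnlg*-high cells richest in the list held 34.2% of its UMIs, and 1 cell held 72.

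In the other lists the medians were 0.17 for adhesion and chemoattractant receptors (13 of 17 genes besides *Cxcr2* above the median of all genes), 0.11 for growth factor receptors (10 of 11 besides *Csf3r*) and 0.00 for regulators of granulopoiesis (16 of 21). They were -0.05 for lysosome and lipid genes (13 of 21), -0.13 for apoptosis and survival genes (10 of 18) and -0.18 for immediate early genes (8 of 18). *Csf3r* and *Cxcr2*, which the rule used, had log2 ratios of 0.21 and 0.10. *Cebpb*, a C/EBP factor of mature granulocytes, was at 6079 against 5307 CPM, and *Spi1*, which encodes PU.1, at 413 against 376 CPM. Markers of other cells also differed, with summed smooth muscle markers (*Myh11*, *Acta2* and *Tagln*) at 1992 against 2608 CPM and summed endothelial markers at 817 against 1237 CPM. Hemoglobin *Hbb-bs* was at 632 against 387 CPM, with 95.8% of its UMIs in 10 *Retnlg*-high cells. The part of such RNA in these ratios was not tested.

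**Figure D4:**
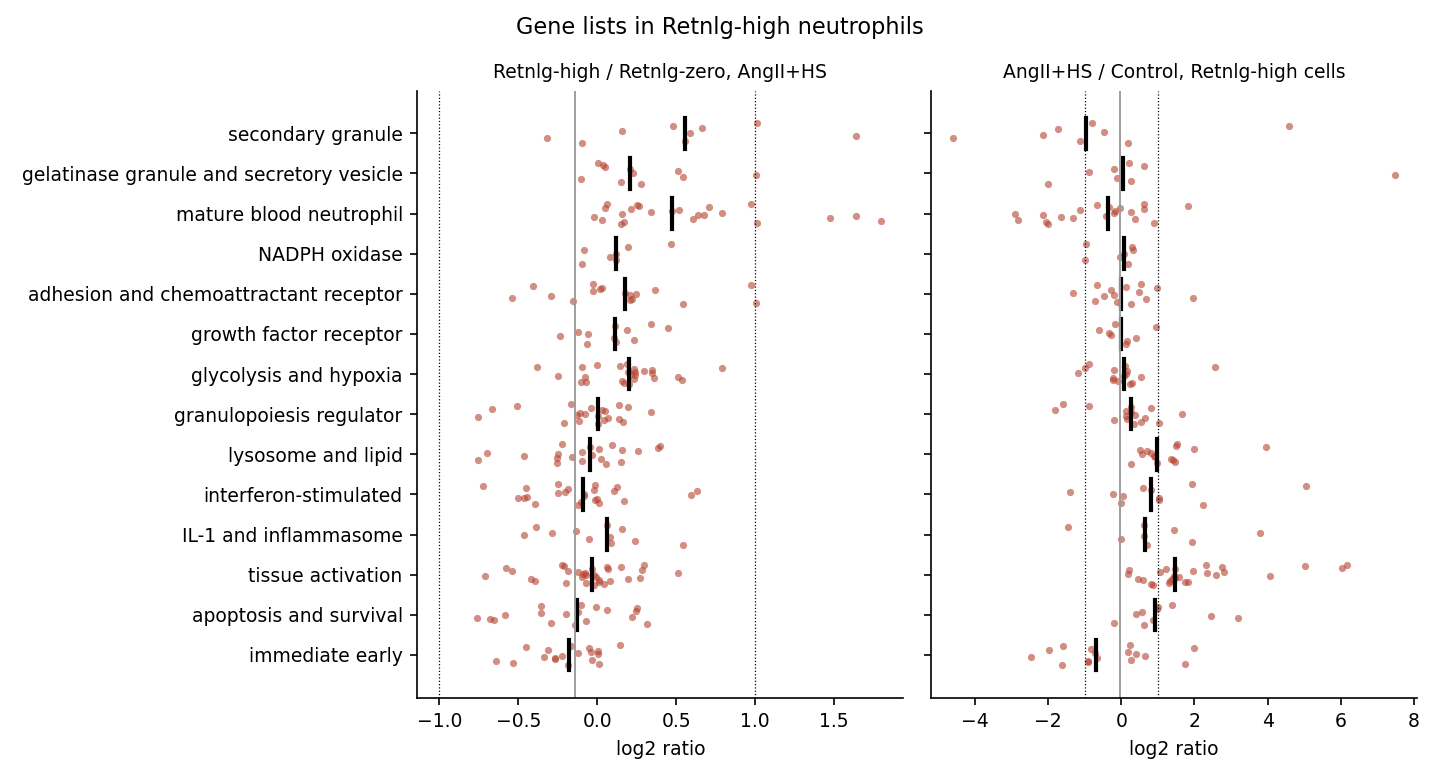
Log2 ratios (horizontal axis) of the genes of each list that passed the filter, 1 point per gene, for *Retnlg*-high against *Retnlg*-zero neutrophils of AngII+HS (left) and for *Retnlg*-high neutrophils of AngII+HS against Control (right), with black bars at list medians, a grey line at the median of all genes and dotted lines at 2-fold. The secondary granule list lies at 0.55 on the left and -0.97 on the right, and the tissue activation list at -0.03 and 1.48.

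Between libraries, the *Retnlg*-high neutrophils of AngII+HS held far more RNA of chemokines and other activation genes and less of several late granule and blood neutrophil genes than those of Control. This comparison rests on 1571 cells with 2977988 UMIs and 102 cells with 383607 UMIs. Among 1695 genes with a mean of at least 100 CPM, 153 were at least 2-fold higher in AngII+HS (9.03%) and 230 at least 2-fold lower (13.6%), with a median log2 ratio of -0.04. TMM scaling moved the median to 0.15 and the counts to 223 higher and 176 lower. Among the 461 of these genes that were at least 3 times the T-cell level of the library where they were higher, a selection made after the data were seen, 71 were higher and 61 lower. That T-cell level was not matched for depth. A gene low in one library passed this filter only through the other, where it had to be higher, so counts of list members are descriptions and the summed level of the whole list is given beside the main ones. The choice of members did not use this contrast, but both classes were held to the same limits on the genes of the rule. Above the limit of 2 *Retnlg* UMIs they were not matched, with medians of 36 in Control and 6 in AngII+HS. The part of this gap in the ratios was not tested.

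Chemokine genes differed widely. *Cxcl3*, a ligand of *Cxcr2*, was at 1979 CPM in AngII+HS and 26.1 CPM in Control, a log2 ratio of 6.18 (5.37 to 7.31). After thinning to 700 UMIs per cell its log2 ratio was 4.71. *Cxcl2*, another ligand of *Cxcr2*, was at 23441 against 3464 CPM, a log2 ratio of 2.76 (2.68 to 2.84). At 700 UMIs per cell, 98.7% of *Retnlg*-high cells in AngII+HS and 64.7% in Control held a *Cxcl2* UMI, beside 34.2% and 0% of the T cells. *Ccl4* was at 3999 against 240 CPM (4.05), and *Ccl3* at 2475 against 412 CPM (2.58). The pooled *Cxcl2* level of AngII+HS T cells was 2334 CPM, under that of the *Retnlg*-high neutrophils of both libraries.

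Of the 27 tissue activation genes that passed the filter, 21 were at least 2-fold higher in AngII+HS and none lower, with a median log2 ratio of 1.48 beside the background of 9.03% and -0.04. The whole list of 32 genes summed to 65339 CPM in AngII+HS and 18334 CPM in Control, and in T cells to 10754 and 2077 CPM. The part of free RNA in this difference was not tested. *Tnf* was at 1586 against 446 CPM (1.83) and *Icam1* at 687 against 175 CPM (1.96). *Ccrl2*, a non-signalling chemokine receptor, had a log2 ratio of 2.80. *Il1a* was at 380 against 26.1 CPM (3.80) and *Nlrp3*, the inflammasome sensor, at 1796 against 472 CPM (1.92), while *Il1b* differed less, at 5130 against 3334 CPM (0.62). The survival gene *Bcl2a1b* was at 849 against 91.2 CPM (3.20), though AngII+HS T cells also held 538 CPM. Lysosome and lipid genes had a median of 0.97 with 7 of 15 at least 2-fold higher and none lower. The whole list summed to 48545 against 25294 CPM, and in T cells to 12763 against 6191 CPM. The list holds *Plin2*, which coats lipid droplets, at 858 against 216 CPM.

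*Chil3*, which encodes the chitinase-like protein Ym1, was the 1 secondary granule gene at least 2-fold higher in AngII+HS, at 836 CPM against 33.9 CPM in Control (4.57). After thinning to 700 UMIs per cell its log2 ratio was 3.34. The 32 interferon-stimulated genes summed to nearly the same level in both libraries, at 5268 CPM in AngII+HS and 5008 CPM in Control, and held 3.91 ± 4.55 and 4.07 ± 3.79 UMIs per cell at 700 UMIs (SD over cells). Of the 11 that passed the filter, 5 were at least 2-fold higher and 1 lower, beside 9.03% and 13.6% of all genes, and their median was 0.80. Within the list *Isg15* was at 214 against 54.7 CPM and *Rsad2*, an antiviral enzyme, at 200.1 against 41.7 CPM, whereas *Ifitm1* was at 878 against 2323 CPM. AngII+HS T cells held *Isg15* at 102 CPM and *Rsad2* at 56.3 CPM.

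A part of the late granule and blood neutrophil genes was lower in AngII+HS. *Mmp8* had a log2 ratio of -2.15, *Wfdc21* of -1.66 and *Lcn2* of -0.82, with the levels given above. *Ly6g* was at 35.6 against 250.3 CPM (-2.81), and *Ifitm6*, an interferon-induced transmembrane protein of marrow and blood myeloid cells, at 57.4 against 433 CPM (-2.91). *Anxa1*, which encodes the anti-inflammatory annexin A1, was at 111 against 448 CPM (-2.01). *S100a6* was at 2982 against 6538 CPM. Of 8 secondary granule genes that passed the filter, 4 were at least 2-fold lower and 1 (*Chil3*) higher, with a median of -0.97. Of 20 genes of mature blood neutrophils, 8 were at least 2-fold lower and 1 (*G0s2*) higher, with a median of -0.38, beside the background of 13.6% lower. The whole lists summed to 4542 against 8292 CPM and to 23091 against 27750 CPM. Other members did not follow, since *Slpi* was at 1569 against 1616 CPM (-0.04) and *Stfa2l1* was higher in AngII+HS at 572 against 305 CPM (0.90).

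Some granule genes were unevenly spread over the Control cells. *Ngp* had 170 UMIs in Control, 68 of them in 1 cell, and 27 of 102 cells held at least 1, whereas 19 of 1571 did so in AngII+HS. *Camp*, which encodes cathelicidin, had 41 of its 49 Control UMIs in 1 cell, and *Ltf* 43 of 48. By contrast *Ly6g* was held by 49 of 102 Control cells, none with more than 8 UMIs. *Mmp8* was held by 53.9% of Control cells after thinning against 16.6% in AngII+HS, and *Wfdc21* by 77.5% against 36.3%. The Control excess of these last 3 genes was thus spread over many cells.

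With every cell thinned to 700 UMIs, the tissue activation list held 49.4 UMIs per cell ± 27.1 (SD over 1571 cells) in AngII+HS and 15.5 ± 11.1 (102 cells) in Control. The *Retnlg*-zero cells of AngII+HS held 54.1 ± 33.0. The secondary granule list held 3.44 ± 2.99 UMIs in *Retnlg*-high cells of AngII+HS, 2.28 ± 2.46 in *Retnlg*-zero cells and 7.12 ± 7.95 in Control. For mature blood neutrophil genes the means were 18.6, 15.3 and 24.1 UMIs. On granule and blood genes the AngII+HS *Retnlg*-high cells thus fell between the other classes, and on activation genes they were near the *Retnlg*-zero cells of their own library. The *Retnlg*-high cells of the libraries were not matched on *Retnlg*, with a median of 6 UMIs in AngII+HS and 36 in Control. The part of this gap in the order of the classes was not tested. These SDs are over cells of 1 library and are not replicate error.

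For 5 further lists the medians lay near that of all genes, at 0.04 for gelatinase granule genes, 0.07 for NADPH oxidase, 0.08 for glycolysis and hypoxia, 0.00 for adhesion and chemoattractant receptors and -0.02 for growth factor receptors. *Hilpda*, a hypoxia-inducible lipid droplet protein, stood apart at 267 against 44.3 CPM. Apoptosis and survival genes had a median of 0.92, with 4 of 10 at least 2-fold higher and none lower beside 9.03% of all genes higher. Granulopoiesis regulators had a median of 0.27, with 2 of 16 higher and 2 lower, which is near the shares over all genes. Interleukin 1 and inflammasome genes had a median of 0.66 (3 of 8 higher, 1 lower), matrix proteases and inhibitors of -0.80 (3 of 9 lower, beside 13.6% of all genes) and immediate early genes of -0.69 (2 of 16 higher, 4 lower). The whole matrix list of 21 genes summed to 4910 CPM in AngII+HS and 5758.5 CPM in Control. Of the lower matrix genes *Timp3* was at -1.02 and turned to 0.80 without the cells of high doublet score. Without those cells the immediate early genes *Fos* and *Fosb* went from -2.48 to -0.68 and from -1.98 to -0.62, and *Egr1* was at 0.67. S100 genes outside the rule were split, with *S100a4* and *S100a10* higher and *S100a6* lower among the 4 that passed. *Spi1* was at 413 against 764 CPM, and *Cebpb* at 6079 against 5036 CPM.

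Several of the widest gaps between libraries were in genes of other cells. Among the highest log2 ratios, besides that of *Cxcl3*, were those of *Cfd*, an adipocyte complement factor, the immunoglobulin light chain gene *Igkc*, the platelet gene *Pf4*, *Spp1*, and the class II genes *Cd74* and *H2-Aa*. *Cfd* was at 299 CPM, with 92.9% of its UMIs in 10 cells, and at 363 CPM in T cells of AngII+HS, where *Spp1* was at 799 CPM beside 597 CPM in *Retnlg*-high neutrophils. *Igkc* was at 604 CPM, beside 356 CPM in T cells, and had 1 UMI in Control. The lowest besides *Ngp* were *Myocd*, *Synpo2*, *Ctnna3*, *Limch1*, *Myh11*, *Rrad* and *Kcnma1*, from -3.83 to -2.99, most of them genes of muscle. Without the cells of high doublet score, *Myocd* was at -1.61 and *Ctnna3* at -1.05. *Limch1*, *Myh11*, *Rrad* and *Kcnma1* then lay between -0.74 and -0.47, and *Synpo2* was at 0.50.

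Smooth muscle RNA was higher in the Control library in T cells as well as in neutrophils. All 3 smooth muscle markers, whose sums are given above, were at least 2-fold lower in AngII+HS. The immediate early genes *Fos* and *Egr1* had the same order, *Fos* being at 588 against 3272 CPM in *Retnlg*-high neutrophils and at 628 against 2652 CPM in T cells. The 7 Control *Retnlg*-high cells with the highest doublet scores (Scrublet) had a median of 14739 UMIs against 2756 for the other 95, and held 31.0% of the UMIs and 87.8% of the smooth muscle marker UMIs. In AngII+HS 152 such cells had a median of 4936.5 UMIs against 1377 for the other 1419. They held 27.2% of the UMIs and 48.6% of the smooth muscle marker UMIs. Without high-scoring cells in either library the median of the 3 markers went from -1.70 to 0.13 and *Fos* from -2.48 to -0.68, while *Egr1* reversed from -1.63 to 0.67. With every cell thinned to 700 UMIs the immediate early list held 10.97 UMIs per cell in AngII+HS and 8.36 in Control, against the direction of its median. Without high-scoring cells and with no thinning, *Mmp8* was at -2.35, *Cxcl2* at 2.46 and *Cxcl3* at 5.68. The part of free RNA in the remaining differences was not tested.

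**Figure D5:**
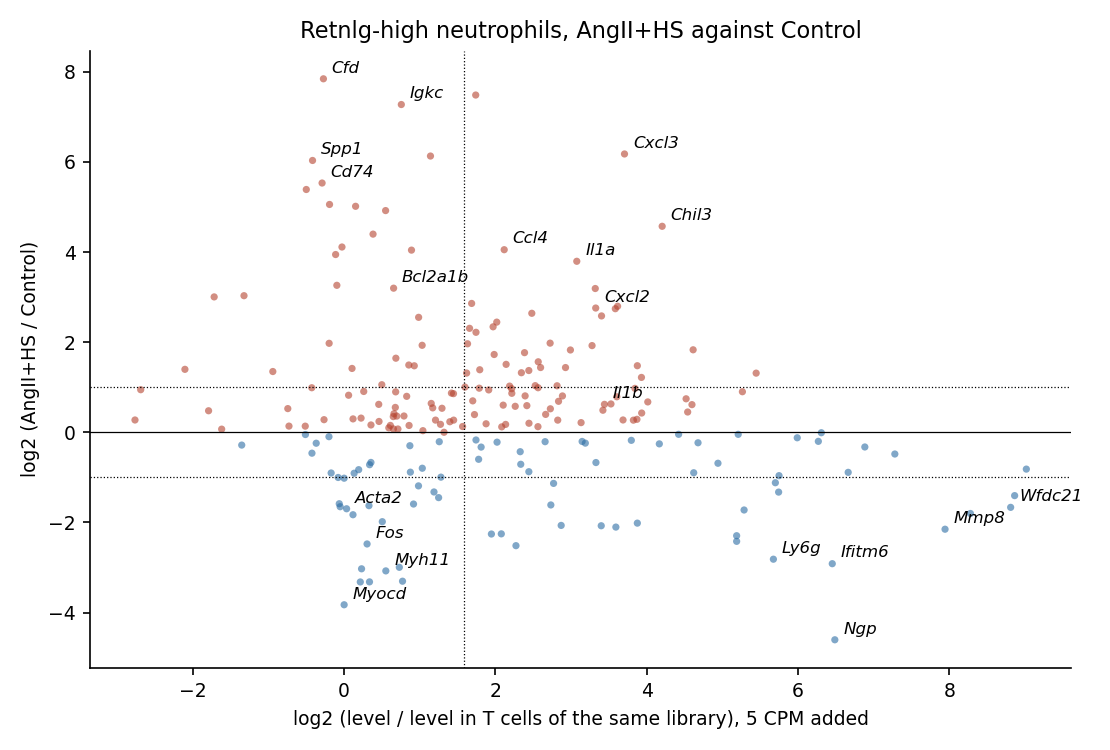
Log2 ratio of AngII+HS to Control in *Retnlg*-high neutrophils (vertical axis) against the log2 ratio of their level to that in T cells of the library where they were higher (horizontal axis, 5 CPM added), 1 point per named gene or list member, with dotted lines at 2-fold and at 3 times the T-cell level. *Cxcl3* and *Chil3* are high on both axes, *Mmp8*, *Ly6g* and *Ngp* lie low on the right, and *Cfd*, *Spp1* and *Myh11* lie near the T-cell level.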

How the data were processed

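Counts were deposited by the authors as 10x Genomics UMI matrices, 1 per library, made with Cell Ranger (version 8.0.1 per the file headers, 7.0 per the study's methods) and not normalized. The submitters' notes name mm10 and the methods GRCm39. The matrices hold 33696 genes, with 86618995 UMIs in Control and 117146856 in AngII+HS. Members and gene lists were chosen with earlier results of these data known. Counts were summed over the cells of a class, scaled to CPM and compared as log2 ratios with 0.5 UMI added, and a gene was called at a 2-fold difference. Genes were kept at a mean of at least 20 CPM (*Retnlg*-high against *Retnlg*-zero) or 100 CPM (AngII+HS against Control). Ratio intervals were exact conditional Poisson and shares exact Clopper-Pearson, at 95%. T cells held at least 2 *Cd3e* UMIs and no *Cd79a*, with no limit on the other genes of the rule. Genes were named as the 12 highest and 12 lowest ratios, leaving out the genes of the rule, with a UMI in at least 10% of cells of either class after thinning to 700 UMIs, as the 8 highest and 8 lowest between libraries, and as members of the gene lists, with the 10 most like *Retnlg* by Pearson correlation. Doublets were not removed in the main values. As an alternative, the highest Scrublet scores (0.8% per 1000 cells) were left out, 9.03% of Control and 19.6% of AngII+HS barcodes. Other alternatives were TMM factors (edgeR 4.0.16), totals without the rule's and mitochondrial genes, equal weight per cell, thinning, depth bands, 5 UMIs added, other UMI and *Retnlg* limits and other filters. Scripts ran on scanpy 1.11.5, scipy 1.17.1, numpy 2.4.6 and Python 3.11.15, and were tested on simulated data. Promoters came from RefSeq. Some genes that met the naming rule are not reported here.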

Additional observations from a re-analysis of the deposited data

Results flagged for a closer look

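Signal of *Retnlg* was also present outside the neutrophil gate. Of 20422 AngII+HS barcodes that passed the quality terms but not the gate, 778 held at least 2 *Retnlg* UMIs, which is 3.81% (3.55 to 4.08), above the 0.0648% of 10807 such barcodes in Control. No *Csf3r* or *Cxcr2* UMI was found in 409 of the 778, and for 295 this was the single term that failed. Fewer than 10 *S100a8* and *S100a9* UMIs were found in 138, more than 2 C1q UMIs in 131, a *Cd3e* or *Cd79a* UMI in 78 and more than 3 *Dcn* UMIs in 202. Without the term on *Csf3r* and *Cxcr2*, the *Retnlg*-high share of neutrophils was 91.1% in Control and 43.0% in AngII+HS.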

How the results depend on the processing

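The share of *Retnlg*-high cells among neutrophils was 82.7% in Control and 32.5% in AngII+HS after thinning, and in AngII+HS 36.9% and 27.9% with at least 3 or 5 *Retnlg* UMIs. Against *Retnlg*-zero cells, the 19 genes at least 2-fold higher and 50 lower became 2188 and 3397 with no filter, 8 and 3 with a filter 5 times higher, 33 and 22 with TMM scaling, 33 and 100 with at least 5 *Retnlg* UMIs, 36 and 158 in cells of 1500 to 3000 UMIs and 100 and 230 in cells of at least 3000 UMIs. The higher genes became 30 in cells of 700 to 1500 UMIs, and the lower genes 17 with equal weight per cell. Of the 12 lowest genes, 7 kept their sign in cells of at least 3000 UMIs, and *Tnf*, *Il1a*, *Il23a*, *Bcl2a1a* and *Bcl2a1d* each changed sign in 1 of 12 alternatives. Between libraries, the 153 higher and 230 lower became 2610 and 5483 with no filter, 34 and 41 with a filter 5 times higher, and 71 and 61 at 3 times the T-cell level, chosen after the data were seen. Among values at least 2-fold apart, the log2 ratio of AngII+HS to Control reversed without high Scrublet scores for *Acta2* (0.13), *Atf3* (0.49), *Egr1* (0.67), *Hk2* (0.17), *Synpo2* (0.50), *Tagln* (0.50), *Timp3* (0.80) and the smooth muscle list (0.13), and for *Atf3* after thinning (0.10). The cause was not tested. With 102 Control cells, 3 UMIs equal 7.82 CPM, so low genes could not be compared between libraries. No paired analysis was possible because each condition has 1 library.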
